A study of Homo sapiens with 4 samples.

Results

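The genes described here are those of the EGF receptor family, its ligands and its feedback inhibitor ERRFI1, measured in HCT116 cells after silencing of CTNNB1. They were chosen by name, 9 in all: the receptors EGFR, ERBB2 and ERBB3, the ligands HBEGF, TGFA, EREG, AREG and EPGN, and ERRFI1. A gene entered where the platform annotation gave a transcript cluster, the array's unit for a gene, that 1 symbol alone. This held for 7 of the 9, among 22411 genes in all. The cluster that carries the ERBB2 symbol carries another symbol too, and no cluster was named for AREG, so ERBB2 and AREG were not analysed here. Each of the 7 genes had 1 cluster, and all 7 passed the filter on low levels.

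HCT116 is an established human colon cancer cell line whose beta-catenin carries an activating mutation. One group received CTNNB1 siRNA and the other a control siRNA, labelled si(-), each at 50 nM with a lipid transfection reagent, and RNA was collected after 48 h. Each group had 2 samples called biological replicates, each on 1 array, 4 arrays in all. The labels do not say that replicates were separate cultures, so the p-values measure only the spread between these samples. Levels are deposited log2 expression units, and a log2 fold change is the mean of the CTNNB1 siRNA arrays minus that of the control siRNA arrays, on that scale.

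Receptors of the EGF family are tyrosine kinases that pair on binding a ligand and signal through RAS and ERK, PI3K and AKT, and STAT proteins. Their ligands are made as membrane-bound precursors and are released by proteases such as ADAM17. ERRFI1 binds the kinase domain of active receptors and blocks it. In the gut epithelium the family is known for driving proliferation and repair, and EREG and AREG are known as ligand genes of high level in a subset of colorectal cancers.

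CTNNB1 was lower on both arrays of its siRNA. It lay at 6.50 and 6.65 log2 units with CTNNB1 siRNA, against 10.06 and 10.20 with control siRNA, a log2 fold change of -3.56 (SE 0.10, adjusted p 0.000134 in limma). Of 15679 genes tested, 4756 passed an adjusted p under 0.05 in limma with Benjamini-Hochberg adjustment, which is 30.3%, with 14.2% higher and 16.1% lower after CTNNB1 siRNA. The epithelial markers EPCAM, KRT8, KRT18, KRT19 and CDH1 were tested, and 4 of the 5 rose while KRT19 did not pass. CDX2 and VIL1, markers of intestinal epithelium, had means over the 4 arrays below 4.29 log2 units, the filter on low levels. Of 9 markers of leukocytes, endothelium and fibroblasts, 4 lay below the filter, and of the 5 tested only CD68, also a lysosomal gene, changed, with a rise of 1.64 log2 units (SE 0.08). The other 8 lay between 2.76 and 5.51 log2 units on all arrays. The part of CD68 in the results below was not tested.

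After CTNNB1 siRNA, 2 of the 7 family genes rose, HBEGF and TGFA, both ligands of EGFR, and 1 fell, the receptor gene ERBB3. The rises were 1.77-fold and 1.52-fold and the fall 1.24-fold. EGFR, EREG, EPGN and ERRFI1 did not pass. The 3 calls among 7 genes are 42.9%, beside 30.3% of all genes tested, and with so few genes nothing is read from that gap. The median log2 fold change of the 7 was -0.18, which is the value of EPGN, beside -0.015 over all genes tested. For 6 of the 7 the arrays of both groups were fully separate, beside 63.0% of all genes tested. EPGN is among the 6, and it passed the level filter only through the group in which it was high. With 2 arrays against 2, the smallest 2-sided p of an exact permutation test is 0.33, so each call depends on the spread that limma shares between genes.

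**Figure D1:**
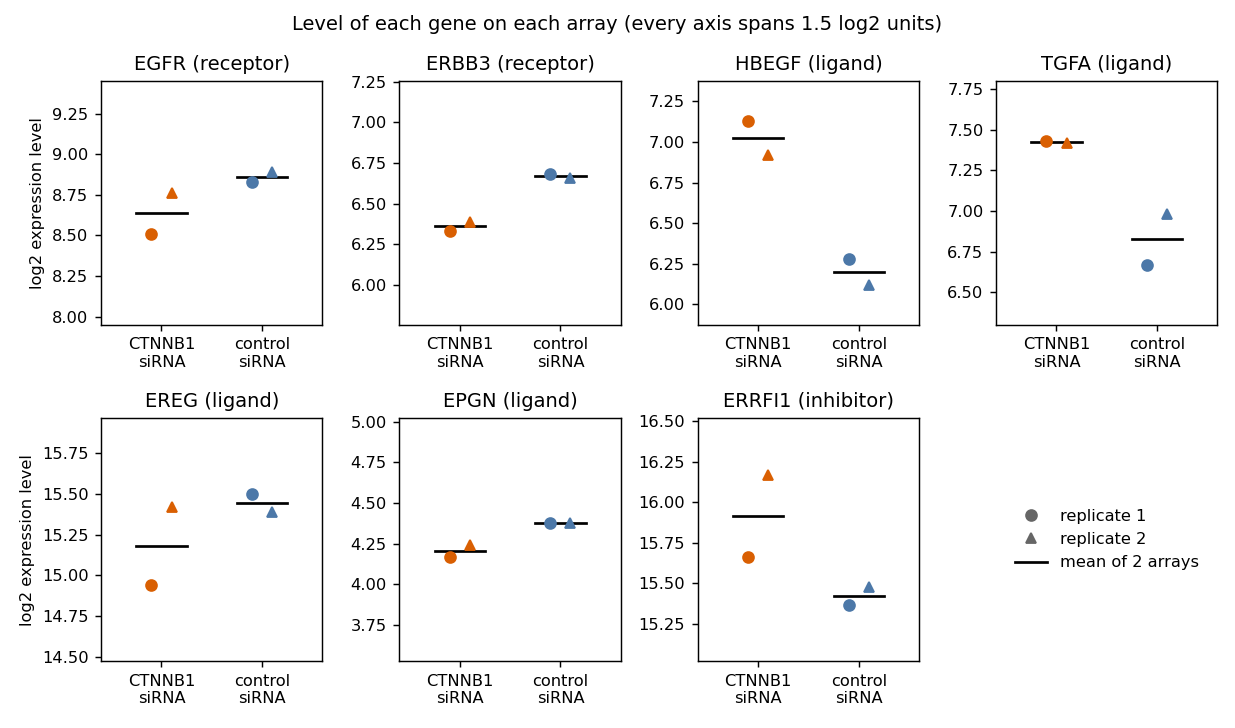
Level of each of the 7 genes (vertical axis, deposited log2 units) on the 2 CTNNB1 siRNA arrays (left) and the 2 control siRNA arrays (right), with replicate 1 as a circle, replicate 2 as a triangle and the group mean as a line. HBEGF and TGFA are higher on both CTNNB1 siRNA arrays, ERBB3 is lower on both, and EREG is the gene whose groups overlap.

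Of the receptors, EGFR on chromosome 7 encodes the receptor that HBEGF, TGFA, EREG and EPGN bind. EGFR lay at 8.51 and 8.76 log2 units with CTNNB1 siRNA, against 8.83 and 8.89 with control siRNA. Both CTNNB1 siRNA arrays were lower, but the nearer of them was only slightly below the lower control array. The log2 fold change was -0.23 (SE 0.11, 95% interval -0.49 to 0.04), with an adjusted p of 0.181 in limma. This interval still allows a fall of a size that the ERBB3 estimate has. Without CTNNB1 siRNA replicate 1 the EGFR value was -0.10, and without CTNNB1 siRNA replicate 2 it was -0.35.

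ERBB3 on chromosome 12 encodes the neuregulin receptor whose own kinase is weak and which signals mainly by recruiting PI3K when paired with another member. Its level was 6.33 and 6.39 log2 units with CTNNB1 siRNA, against 6.68 and 6.66 with control siRNA. The groups were separate and the arrays within each nearly equal. ERBB3 thus fell by 0.31 log2 units (SE 0.08), with a 95% interval from -0.50 to -0.12 and an adjusted p of 0.0299 in limma. A change of larger size was found for 33.2% of all genes tested. ERBB4, the other neuregulin receptor gene and one of the fixed list of other pathway genes, lay below the level filter, at 4.02 and 3.95 log2 units with CTNNB1 siRNA and 4.02 and 3.97 with control siRNA. EGFR-AS1, the antisense gene at the EGFR locus, also lay below it, at 3.72 and 3.56 with CTNNB1 siRNA and 3.84 and 4.03 with control siRNA.

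Of the ligands, HBEGF on chromosome 5 encodes heparin-binding EGF-like growth factor, which binds EGFR and ERBB4. HBEGF lay at 7.13 and 6.92 log2 units with CTNNB1 siRNA, against 6.28 and 6.12 with control siRNA. Both CTNNB1 siRNA arrays were well above both control arrays. It rose by 0.83 log2 units (SE 0.11, 95% interval 0.56 to 1.09), with an adjusted p of 0.00356 in limma. A change of larger size was found for 8.78% of all genes tested.

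TGFA on chromosome 2 encodes transforming growth factor alpha, an EGFR ligand of epithelial cells. TGFA lay at 7.43 and 7.42 log2 units with CTNNB1 siRNA, against 6.67 and 6.98 with control siRNA. The CTNNB1 siRNA arrays were nearly equal and both higher, while the control arrays differed from each other. It rose by 0.60 log2 units (SE 0.12, 95% interval 0.31 to 0.89), with an adjusted p of 0.0142 in limma.

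EREG and EPGN, which encode the EGFR ligands epiregulin and epigen, are neighbours on chromosome 4. EREG lay at 14.94 and 15.42 log2 units with CTNNB1 siRNA, against 15.50 and 15.39 with control siRNA. The groups overlapped, since CTNNB1 siRNA replicate 2 lay between the control arrays and only replicate 1 was lower. The log2 fold change was -0.27 (SE 0.16, 95% interval -0.67 to 0.14), with an adjusted p of 0.299 in limma. Without CTNNB1 siRNA replicate 1 it was -0.025, and without CTNNB1 siRNA replicate 2 it was -0.51.

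EPGN lay at 4.17 and 4.24 log2 units with CTNNB1 siRNA, against 4.38 on both control arrays. These values lie around the level filter of 4.29, so the measurement has little room downwards. Its CTNNB1 siRNA levels lay below the filter value, so it was tested only because its control levels were higher. Its log2 fold change of -0.18 (SE 0.08) is therefore given as a description, without its p. Whether the changes of the ligand genes differ from each other was not tested.

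EREG did not pass, and no test result is read for EPGN. The promoters of the 2 ligand genes that rose are shown with those of EREG and EPGN, so that their makeup can be compared. Each is the 250 bases before the gene's start from RefSeq on GRCh38.p14, on the gene's own strand and 5′ to 3′. In the sources used here, no build is given for the array's clusters. The windows are chr5:140346604-140346853 on the minus strand for HBEGF, chr2:70553827-70554076 on the minus strand for TGFA, chr4:74364895-74365144 on the plus strand for EREG and chr4:74308220-74308469 on the plus strand for EPGN. Capitals mark matches on either strand to the GC box GGGCGG, to TATAAA, to the TEAD word CATTCC and to the TCF/LEF word, which is CTTTG followed by a pair of bases that are each A or T.
HBEGF: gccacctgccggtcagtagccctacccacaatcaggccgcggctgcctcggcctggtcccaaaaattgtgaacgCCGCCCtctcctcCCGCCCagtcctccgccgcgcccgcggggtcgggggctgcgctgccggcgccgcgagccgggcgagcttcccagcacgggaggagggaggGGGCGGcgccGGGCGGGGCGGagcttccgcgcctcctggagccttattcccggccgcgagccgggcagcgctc
TGFA: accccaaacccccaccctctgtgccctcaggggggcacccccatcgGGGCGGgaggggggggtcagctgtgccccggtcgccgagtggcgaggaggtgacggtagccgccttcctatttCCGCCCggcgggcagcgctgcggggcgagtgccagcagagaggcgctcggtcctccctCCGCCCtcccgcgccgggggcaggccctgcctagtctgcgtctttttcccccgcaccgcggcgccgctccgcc
EREG: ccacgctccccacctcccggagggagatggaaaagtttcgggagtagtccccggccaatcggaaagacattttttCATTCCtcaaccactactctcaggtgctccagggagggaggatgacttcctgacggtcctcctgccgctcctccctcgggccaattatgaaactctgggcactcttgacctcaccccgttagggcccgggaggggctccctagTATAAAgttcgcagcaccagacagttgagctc
EPGN: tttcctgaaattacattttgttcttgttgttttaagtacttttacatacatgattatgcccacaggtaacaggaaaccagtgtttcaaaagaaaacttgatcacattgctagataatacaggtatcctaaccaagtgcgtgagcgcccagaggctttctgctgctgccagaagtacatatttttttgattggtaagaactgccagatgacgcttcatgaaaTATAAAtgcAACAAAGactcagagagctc

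The HBEGF window held 5 GC boxes, of which the last 2 share a base, and the TGFA window held 3. At least 3 GC boxes were found in 14.0% of all 27305 promoters of the same length, and at least 5 in 4.2%. Neither window held TATAAA, and their G and C content was 76.4% for HBEGF and 75.6% for TGFA, beside a median of 58.0% over all promoters. The EREG and EPGN windows each held TATAAA close to the start, which 11.1% of all promoters hold anywhere in the window, and no GC box. Their G and C content was 58.0% for EREG and 38.0% for EPGN. The windows of EGFR and ERRFI1, which did not pass, also lacked that exact word TATAAA. Their G and C content was 73.6% with 2 GC boxes for EGFR and 75.2% with 1 GC box for ERRFI1. The ERRFI1 window does hold the letters TATATATA close to the start, a word that was not searched for in any promoter.

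A TCF/LEF word was found in the EPGN window and in none of those of HBEGF, TGFA, EREG, EGFR and ERRFI1, beside 12.1% of all promoters. The TEAD word was found in the EREG window, beside 11.9% of all promoters. The AP-1 word TGAGTCA, searched like the others on both strands, and the EGR word GCGGGGGCG were in none of these 6 windows, beside 4.16% and 4.68% of all promoters. These matches describe the letters of short windows and say nothing of binding by a factor.

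ERRFI1 on chromosome 1, the feedback inhibitor of the receptors, is also known as MIG6. ERRFI1 lay at 15.66 and 16.17 log2 units with CTNNB1 siRNA, against 15.37 and 15.48 with control siRNA. Both CTNNB1 siRNA arrays were higher, replicate 1 by little and replicate 2 by more. The log2 fold change was 0.49 (SE 0.17, 95% interval 0.06 to 0.92), which missed the threshold at an adjusted p of 0.086 in limma. Without CTNNB1 siRNA replicate 2 it was 0.24, and without CTNNB1 siRNA replicate 1 it was 0.75. EREG and ERRFI1 lay high among the clusters, of which between 444 and 460 of 67528 per array were above 15 log2 units, but below the highest values of 19.79 to 19.93, and saturation of their signals was not tested.

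**Figure D2:**
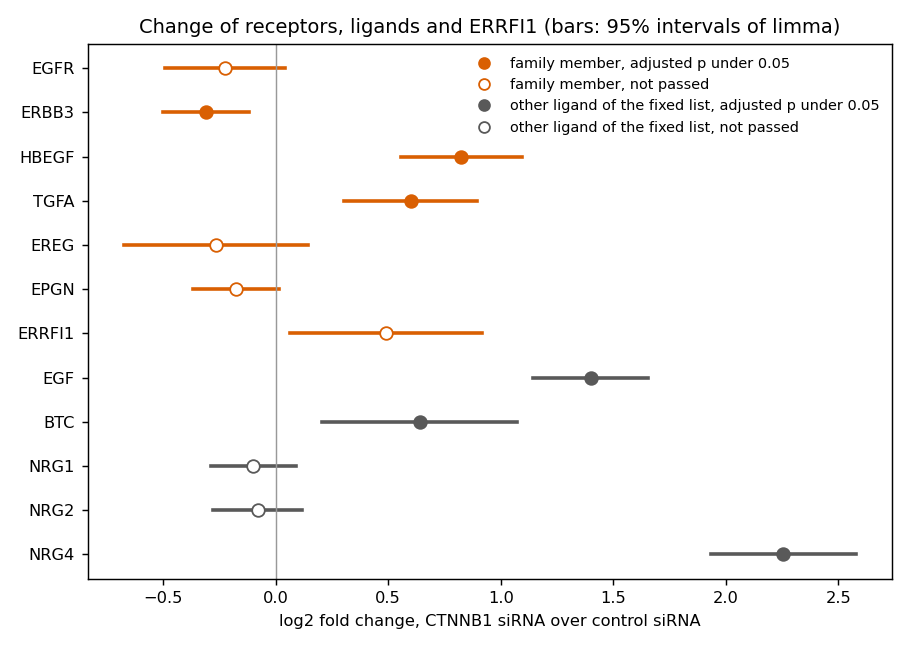
Log2 fold change between CTNNB1 siRNA and control siRNA (horizontal axis, positive for higher after CTNNB1 siRNA) with limma's 95% interval for the 7 family genes and, in grey, the 5 tested ligand genes of the fixed list. Filled points passed an adjusted p under 0.05. NRG4 has a rise of 2.26, larger than those of HBEGF and TGFA, and EGF entered the test only through its level with CTNNB1 siRNA. EPGN entered the test only through its level with control siRNA.

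The remaining ligand genes of the system included a larger rise than those of HBEGF and TGFA. Their list was set by name, with earlier results of these data known. Of 5 tested, 3 rose, none fell and 2 did not pass, beside 14.2% of all genes tested that rose, but 1 of the 3, EGF, passed the level filter only through the group in which it was high. NRG4, which encodes neuregulin 4, a ligand of ERBB4, lay at 8.05 and 7.72 log2 units with CTNNB1 siRNA, against 5.70 and 5.56 with control siRNA. NRG4 rose by 2.26 log2 units (SE 0.13, adjusted p 0.000428 in limma), a 4.77-fold difference, while the ERBB4 gene lay below the level filter in both groups.

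EGF, the founding ligand of the family, lay at 5.15 and 5.38 log2 units with CTNNB1 siRNA, against 3.83 and 3.90 with control siRNA. Its control levels lay below the filter value of 4.29, so it was tested only because it was high with CTNNB1 siRNA. Its log2 fold change of 1.40 (SE 0.10) is therefore given as a description, without its p. BTC, which encodes betacellulin and lies on chromosome 4 near EREG, was at 6.60 and 7.03 with CTNNB1 siRNA, against 6.02 and 6.33 with control siRNA. It rose by 0.64 (SE 0.17, adjusted p 0.0407 in limma). The neuregulin genes NRG1 and NRG2 had log2 fold changes of -0.10 and -0.08 and did not pass, and NRG3 lay below the level filter.

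Of the genes for ligand release, ADAM17, which encodes the protease that sheds TGFA, HBEGF and EREG, rose, and 3 other tested genes did not pass. ADAM17 lay at 11.74 and 11.85 log2 units with CTNNB1 siRNA, against 10.82 and 10.83 with control siRNA, a rise of 0.97 (SE 0.08, adjusted p 0.000994 in limma). ADAM10, which sheds EGF and BTC, had a log2 fold change of 0.11 (SE 0.09). The genes of the rhomboid-like proteins that carry ADAM17 to the cell surface, RHBDF1 and RHBDF2, had log2 fold changes of 0.08 and -0.04.

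**Figure D3:**
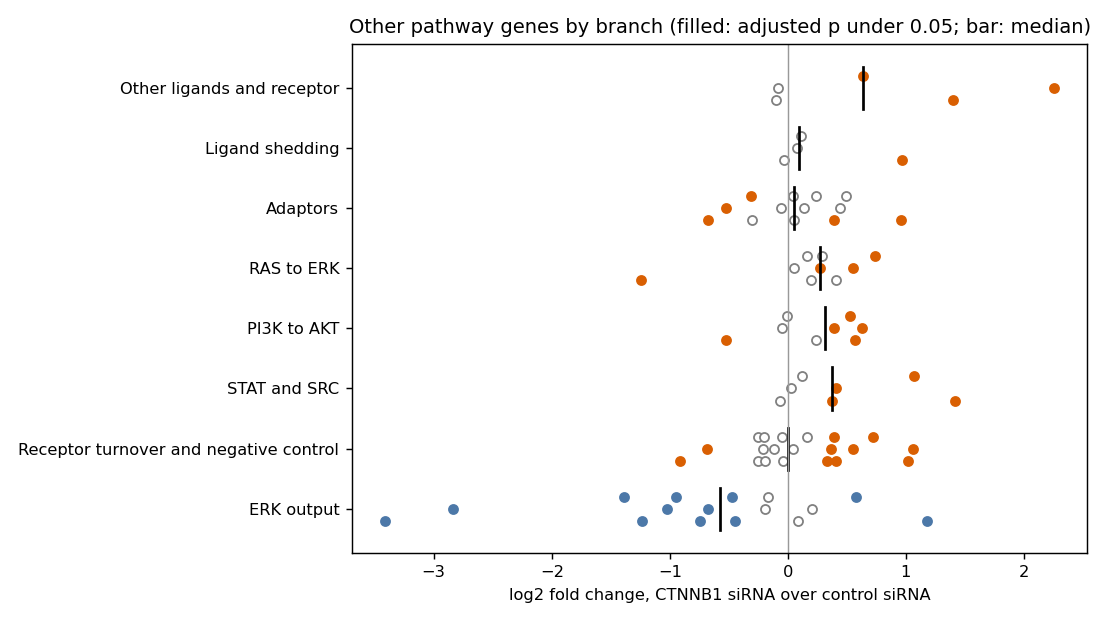
Log2 fold change (horizontal axis) of the tested genes of the fixed lists by branch, with filled points for an adjusted p under 0.05 in limma, open points for genes that did not pass and a bar at the branch median. The ERK output genes, in blue, have a median of -0.57, and the STAT and SRC branch a median of 0.38.

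Over all branches, the list of other pathway genes held 84 names, of which 14 had no cluster with 1 symbol, 4 lay below the level filter and 66 were tested. Of these, 25 rose, EGF among them, 7 fell and 34 did not pass. The share that rose was 37.9%, beside 14.2% of all genes tested, and the share that fell was 10.6%, beside 16.1%. The background share rises with level: above the 50th percentile of level, 42.1% of all genes passed in either direction, beside 30.3% in the main setting. The median log2 fold change of the list was 0.16, beside -0.015 over all genes tested. The pathway is thus covered only in part. This list too was chosen with earlier results of these data known, so its shares are a description.

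In the STAT and SRC branch, 4 of 7 tested genes rose and none fell, beside 14.2% and 16.1% of all genes tested. STAT3, a transcription factor that EGFR and JAK kinases activate, rose by 1.42 log2 units (SE 0.12), and the kinase gene JAK1 rose by 1.07 (SE 0.10). In the branch of RAS to ERK, 3 of 9 rose and 1 fell, shares of 33.3% and 11.1% beside the same 14.2% and 16.1%. MAP2K1, the kinase that activates ERK, rose by 0.74 (SE 0.10), and ELK1, a nuclear substrate of ERK, fell by 1.25 (SE 0.08). For the genes named in this paragraph, adjusted p-values in limma ran from 0.000528 for ELK1 to 0.00462 for MAP2K1. Other called genes of these branches had higher ones, up to 0.0441 for MAP2K2.

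Of 8 tested genes from PI3K to AKT, 4 rose and 1 fell, shares of 50.0% and 12.5% beside 14.2% and 16.1% of all genes tested. Of 13 adaptor genes, 2 rose and 3 fell, shares of 15.4% and 23.1% that lie near those of all genes. The catalytic subunit gene PIK3CB rose by 0.63 log2 units (SE 0.12), and PIK3R3, a regulatory subunit gene, fell by 0.53 (SE 0.08). SOS1, which loads RAS with GTP, rose by 0.96 (SE 0.10), and the adaptor gene NCK2 fell by 0.68 (SE 0.09).

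Genes of receptor turnover moved in both directions, with 8 of 20 tested genes rising, 2 falling and 10 not passing, and a median near 0. The shares were 40.0% up and 10.0% down, beside 14.2% and 16.1% of all genes tested. SH3KBP1 and EPS15, which encode endocytic proteins that act on EGFR, rose by 1.06 (SE 0.08) and 1.02 (SE 0.08). The ubiquitin ligase gene NEDD4 rose by 0.72 (SE 0.10). Of the CBL genes, whose ligases mark active EGFR for degradation, CBL and CBLC rose by 0.39 and 0.37 and CBLB fell by 0.91 (SE 0.13). The receptor-degrading genes LRIG1 and RNF41, the second of which targets ERBB3, had log2 fold changes of -0.05 and -0.25 and did not pass.

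Genes known to follow ERK activity were mostly lower. Of 16 on the fixed list, all tested, 10 fell, 2 rose and 4 did not pass. The share that fell was 62.5%, beside 16.1% of all genes tested, and the median log2 fold change was -0.57. The list was chosen with earlier results of these data known, so this share is a description. SPRY4, a feedback inhibitor of receptor signalling, lay at 8.20 and 8.45 log2 units with CTNNB1 siRNA, against 9.68 and 9.74 with control siRNA. The phosphatase gene DUSP4 fell by 1.24 (SE 0.15) and the ETS factor gene ETV4 fell by 0.75 (SE 0.09). The genes that rose were FOSL1, by 1.18 (SE 0.08), and the receptor gene EPHA2, by 0.58 (SE 0.09). Some of these genes, such as CCND1, are also known as Wnt targets, and the part of either pathway in their levels was not tested.

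Chromosomal neighbours of the family genes were called about as often as genes at large. The nearest 2 coding genes on either side with a cluster of 1 symbol gave 24 neighbours that are not among the 9 genes, of which 21 were tested, 4 rose and 2 fell. The 4 include the ligand gene BTC, and TNFRSF9, whose control levels lay below the level filter. The calls are 28.6%, beside 30.3% of all genes tested. Next to HBEGF, PFDN1 fell by 0.36 (SE 0.09) and CYSTM1 rose by 0.42 (SE 0.08). Next to TGFA, SNRPG fell by 0.34 (SE 0.09) and FAM136A rose by 0.32 (SE 0.09). Around EREG and EPGN on chromosome 4, MTHFD2L, CXCL2 and PARM1 had log2 fold changes of -0.33, -0.03 and -0.61 and did not pass, while BTC, given above, rose. No tested neighbour of EGFR or ERBB3 passed.

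The genes whose values across the 4 arrays were most like those of HBEGF, each centred on its own mean, were PARD6B, PIP5K1A, PIK3C2A, DHX29 and OSGIN1. Their root mean square distances from HBEGF lay between 0.031 and 0.041 log2 units, and their log2 fold changes between 0.76 and 0.88. For ERBB3 they were NHEJ1, ZNF8, MTARC1, SNX18 and CALD1, at distances between 0.0071 and 0.0109 and with log2 fold changes between -0.32 and -0.30. With 2 arrays per group, such likeness reflects little more than the difference between the groups and the difference within each.

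**Figure D4:**
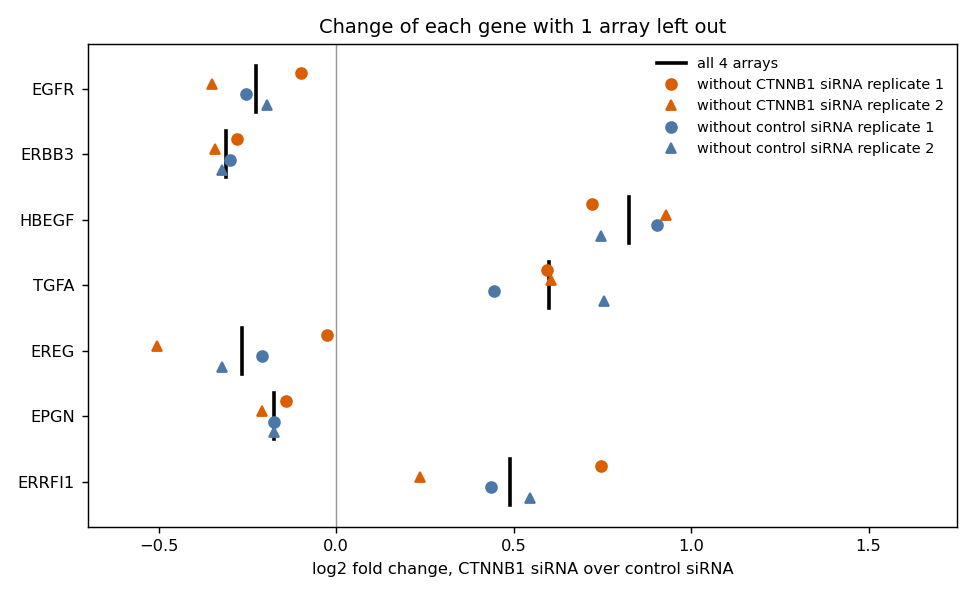
Log2 fold change (horizontal axis) of each of the 7 genes over all 4 arrays (black bar) and with 1 array left out, in orange for CTNNB1 siRNA arrays and blue for control siRNA arrays. No gene changes side of 0, EREG comes closest at -0.025 without CTNNB1 siRNA replicate 1, and ERRFI1 spans 0.24 to 0.75.

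With any 1 array left out, the direction of each of the 7 genes was kept but no call was. HBEGF then lay between 0.72 and 0.93, TGFA between 0.45 and 0.76 and ERBB3 between -0.34 and -0.28. Their adjusted p-values in limma lay between 0.0636 and 0.171. Over all genes tested, 0 passed in limma in these settings, although between 4732 and 4930 had an unadjusted p under 0.05.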

How the data were processed

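Biotin-labelled cDNA of total RNA was measured on whole-transcript GeneChip arrays, per the labels' protocols. The authors deposited log2 levels per transcript cluster, made with Affymetrix Expression Console and RMA, per the submitters' processing notes. Not given in the sources used here are versions, RMA variant and genome build. The table holds 67528 clusters on 4 arrays, with array medians between 4.58 and 4.66.

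Of 25324 named clusters, 23781 carried 1 symbol, updated through RefSeq (GRCh38.p14). The cluster with the highest mean stood for a gene. Genes above the 30th percentile of mean level, 4.29 log2 units, entered a 2-group fit without block by lmFit and eBayes (limma 3.58.1, R 4.3.3), with Benjamini-Hochberg adjustment over all 15679. The fit was tested on simulated data over 30 seeds. False calls were near the nominal rate where spreads followed limma's variance model, and above it where they were drawn from the genes' moderated spreads. The simulation raised few genes, lowered none and drew arrays independently, so it does not give the rate of false calls in the real data.

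All members are named, with up to 8 called genes per branch of the lists, the neighbours and the 5 most alike genes of 2 members. Genes named beyond this rule were picked with their values known. Members and lists were chosen with earlier results of these data known. Replicate numbers are shared between groups, but nothing in the labels ties a number to a shared culture. Alternatives were the level filter, normalization, variance model, symbols, the replicate block and each array left out. Plots used Python 3.11.15 with matplotlib 3.10.9.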

Additional observations from a re-analysis of the deposited data

How the results depend on the processing

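The 4 arrays limit every value, and the signal over background is not known because scanner files were not used here. With the replicate number as a block, ERBB3 (log2 fold change -0.31, adjusted p 0.0551 in limma) and TGFA (0.60, adjusted p 0.0561) no longer passed, which left 1 member higher (HBEGF) and 0 lower in limma, although 3 members were higher and 1 lower at an unadjusted p under 0.05. The block left 24.9% of all genes called in limma. Deviations of same-numbered arrays correlated with r = 0.271 across tested genes, which describes only 2 pairs. Above the 50th percentile of level the median was 0.255 for the pathway list and -0.71 for the ERK output list, with fewer genes tested, and EPGN was not tested. Over all settings that kept the 4 arrays, these 2 included, 119 of 125 values kept direction and call, or moved by less than the replicate spread or 1.5 times. The level filter, variance model and block cannot alter a gene's log2 fold change, so direction was kept there by design. A gene called in neither setting also counts as kept. No further cluster of a member existed to try. With 1 array left out, the lone array of a group is assumed to vary like the others. The log2 fold change then lay between -3.63 and -3.48 for CTNNB1, between 0.72 and 0.93 for HBEGF, between 0.445 and 0.755 for TGFA, between -0.34 and -0.28 for ERBB3, between -0.35 and -0.10 for EGFR, between -0.505 and -0.025 for EREG, between -0.21 and -0.14 for EPGN and between 0.235 and 0.745 for ERRFI1. The medians lay between 0.1225 and 0.22 for the pathway list and between -0.62 and -0.455 for the ERK output list. Calls were 0 for the table, the members and both lists, in each direction and in limma, with between 4732 and 4930 genes at an unadjusted p under 0.05.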

Other observations

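YAP, TAZ, the TEAD factors and their targets CCN1 and CCN2 form a list of 8 genes, all tested, that was added because YAP is known to act on ligand genes of the EGF family. Of these, 3 rose and 2 fell, beside 14.2% and 16.1% of all genes tested, and the median log2 fold change was 0.005. CCN1, which encodes a matricellular protein, lay at 6.92 and 6.68 log2 units with CTNNB1 siRNA, against 5.75 and 5.65 with control siRNA, and rose by 1.10 (SE 0.11, adjusted p 0.00146 in limma). WWTR1, which encodes TAZ, rose by 0.70 (SE 0.10). TEAD1, a DNA-binding partner of YAP and TAZ, lay at 9.99 and 9.95 with CTNNB1 siRNA, against 10.99 and 10.96 with control siRNA, and fell by 1.01 (SE 0.08, adjusted p 0.000802 in limma). For YAP1 the groups overlapped, at a log2 fold change of -0.14 (SE 0.13).

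TNFRSF9, a neighbour of ERRFI1, encodes a co-stimulatory receptor. It lay at 4.84 and 4.75 log2 units with CTNNB1 siRNA, against 3.94 and 3.92 with control siRNA, a log2 fold change of 0.87 (SE 0.08). Its control levels lay below the filter value of 4.29 and it was tested only because it was high with CTNNB1 siRNA, so this difference is a description.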
